A study of Mus musculus with 24 samples.

Results

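Messenger RNA for 6 NADPH oxidase subunit genes was measured in mouse livers after a control diet or a methionine-choline deficient (MCD) diet. The genes Cyba, Cybb, Ncf1, Ncf4, Rac2 and Nox4 were chosen by symbol from the 56205 gene rows of the count table. All 6 passed the filter on low counts and were among the 14109 genes tested.

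The animals were C57BL/6J mice, with 12 whole-liver libraries per diet, kept on either food for 20 weeks. The series describes 6 animals of each sex in each diet group, and the labels give no sex for a library. Each library was made from poly(A) RNA of a whole liver extracted with Trizol. The labels name no genetic change and no drug in either group. This food is a dietary model of steatohepatitis and fibrosis. The study's methods describe it as rich in fat as well and list a separate control food without its composition, and its results name a high-fat food lacking choline with defined amino acids, so lack of methionine and choline cannot be told apart from other differences in the food. Each value is a sum over all cells of the liver.

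The phagocyte NADPH oxidase passes electrons from NADPH across a membrane to oxygen and makes superoxide, which macrophages and neutrophils use against microbes. Its catalytic core is NOX2, the product of Cybb, held in the membrane by the Cyba product p22phox. Cytosolic subunits, among them those encoded by Ncf1 (p47phox) and Ncf4 (p40phox), join it together with the small GTPase Rac2 when the cell is triggered. NOX4 is a related enzyme that also pairs with p22phox, is active without the cytosolic subunits and is known from hepatocytes, fibroblasts and other cells that are not phagocytes.

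Total counts per library ran from 16793207 to 24915175 in control livers and from 16388650 to 24577848 in MCD livers. TMM factors were 0.642 to 0.973 in control and 1.07 to 1.26 in MCD libraries, so the diets were apart in scaling. Control replicate 12 had the lowest factor and the fewest genes detected, 17469. No 2 libraries were alike within counting noise. Albumin RNA, the defining hepatocyte transcript, averaged 79836 CPM, a read count relative to the TMM-scaled library total, under the control diet and 51883 CPM under the MCD diet.

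The start regions of the members with a RefSeq entry are shown because 3 of these genes moved together between the diets and the fourth did not. Entries were found for 4 of the 6 members, Cyba, Cybb, Ncf1 and Nox4, in build GRCm38.p6. Each window covers 250 bases before to 25 bases after the start of the gene and is written 5′ to 3′ on the strand of the gene. The windows are chr8:122432916-122433190 (minus strand) for Cyba, chrX:9469300-9469574 (minus strand) for Cybb, chr5:134229601-134229875 (minus strand) for Ncf1 and chr7:87246399-87246673 (plus strand) for Nox4. Capitals mark the reverse complement of GAGGAA, a core sequence read by ETS factors such as PU.1.
Cyba: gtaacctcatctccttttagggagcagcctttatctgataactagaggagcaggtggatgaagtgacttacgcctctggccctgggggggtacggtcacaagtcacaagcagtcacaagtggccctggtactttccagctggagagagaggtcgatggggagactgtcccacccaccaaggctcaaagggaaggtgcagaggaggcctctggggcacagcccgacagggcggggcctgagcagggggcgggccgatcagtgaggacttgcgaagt
Cybb: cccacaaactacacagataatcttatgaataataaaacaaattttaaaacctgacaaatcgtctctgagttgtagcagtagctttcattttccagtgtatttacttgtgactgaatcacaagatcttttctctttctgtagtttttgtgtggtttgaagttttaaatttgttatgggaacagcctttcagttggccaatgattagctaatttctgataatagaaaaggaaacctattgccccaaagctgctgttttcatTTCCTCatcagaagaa
Ncf1: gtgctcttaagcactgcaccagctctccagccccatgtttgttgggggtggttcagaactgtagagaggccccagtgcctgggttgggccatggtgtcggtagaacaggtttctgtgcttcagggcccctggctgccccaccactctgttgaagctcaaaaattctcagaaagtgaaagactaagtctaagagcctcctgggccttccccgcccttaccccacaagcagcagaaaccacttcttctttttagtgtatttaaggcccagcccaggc
Nox4: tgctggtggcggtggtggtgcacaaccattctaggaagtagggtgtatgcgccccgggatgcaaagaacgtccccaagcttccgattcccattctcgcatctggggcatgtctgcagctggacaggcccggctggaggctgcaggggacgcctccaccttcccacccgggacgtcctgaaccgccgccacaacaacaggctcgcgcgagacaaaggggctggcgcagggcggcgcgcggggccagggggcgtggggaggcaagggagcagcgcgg

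The letters GAGGAA were searched on both strands, with no overlap with the other motifs searched, and stood once among these windows, in that of Cybb, at bases 9 to 14 after the start on the opposite strand. Of 32851 RefSeq windows of the same length, 25.5% held it. CCAAT was found in the Cybb window alone of these, at bases -56 to -52, and 35.8% of all windows held it. TATAAA was found in none of these windows and in 13% of all. These matches describe letters in a window and no binding was measured. The Cybb start is that of its main transcript, and GENCODE M21 also lists a Cybb transcript that begins further upstream.

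In MCD livers 5 of the 6 genes rose, all of them subunits of the phagocyte enzyme, by 2.68-fold (Rac2) to 7.92-fold (Cyba). Nox4 did not pass the test. The call required a false discovery rate (FDR) of 0.01 or less and a log2 fold change beyond 0.5 in edgeR's quasi-likelihood test with Benjamini-Hochberg adjustment over all genes tested. By that rule 19.2% of the genes tested were higher in MCD livers and 19.1% were lower. For each of the 5 genes every MCD library lay above every control library, which held for 9.5% of all genes tested. In whole liver, more or fewer cells of a type cannot be told apart from more or less RNA in each cell.

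**Figure D1:**
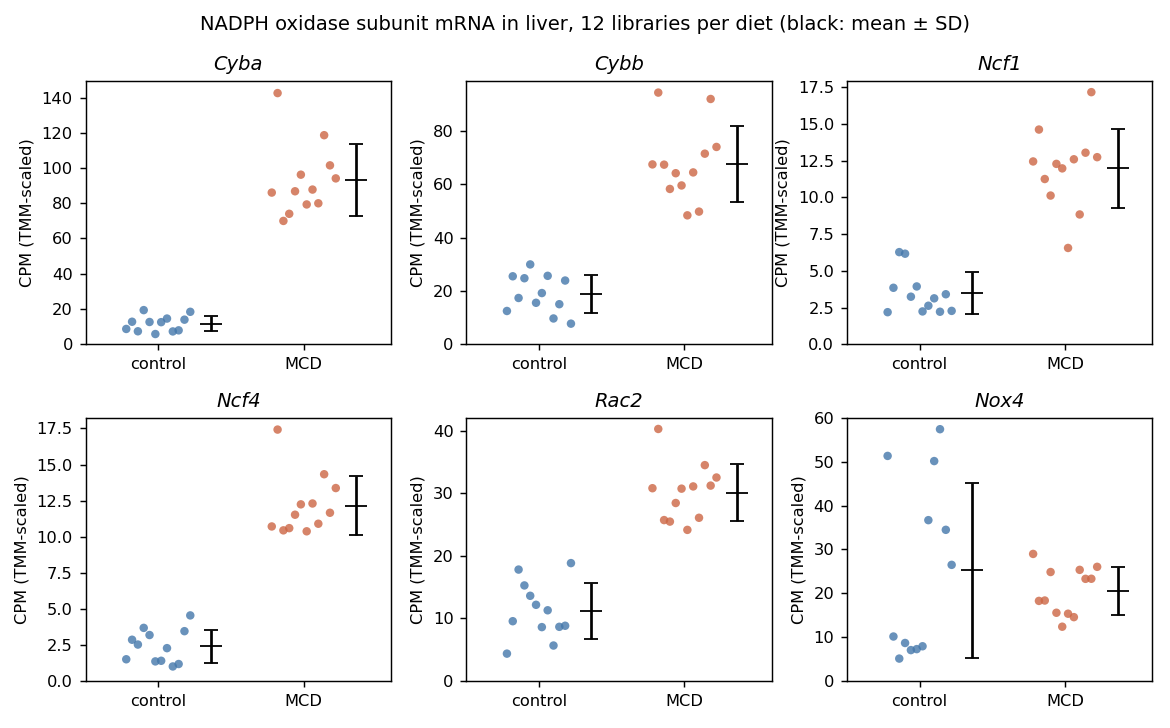
CPM of each subunit gene on the vertical axis in 12 control and 12 MCD libraries, placed by replicate number within a diet, with the mean and SD in black. The diets do not overlap for Cyba, Cybb, Ncf1, Ncf4 and Rac2, whereas the Nox4 control libraries lie in separate ranges of 5.10 to 10.1 and 26.5 to 57.4 CPM on either side of many MCD libraries.

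Cyba encodes p22phox, the membrane subunit shared by NOX2 and NOX4, and lies on chromosome 8. Its lowest, median and highest control libraries held 5.78, 12.6 and 19.3 CPM, against 70.0, 87.3 and 142.5 CPM in MCD livers. Every MCD liver was therefore at least 3.62 times the highest control. Mean Cyba RNA went from 11.8 ± 4.44 to 93.1 ± 20.3 CPM (SD, n = 12 per diet). On the log2 scale Cyba rose by 2.98, standard error 0.18 (95% confidence interval 2.62 to 3.35; edgeR, adjusted p = 9.71e-13). In size of log2 fold change Cyba ranked 221 of the 14109 genes tested.

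Cybb encodes the catalytic subunit NOX2 and lies on chromosome X. Control livers held 7.72, 18.3 and 29.97 CPM at the lowest, median and highest library, and MCD livers held 48.4, 66.0 and 94.5 CPM. The gap between the groups was smaller than for Cyba, with the lowest MCD library at 1.62 times the highest control. Cybb rose 3.57-fold (95% confidence interval 2.77 to 4.61), or 1.84 on the log2 scale with a standard error of 0.18 (edgeR, adjusted p = 2.09e-09). The lowest Cybb value of the series was in control replicate 12, the library with the lowest scaling factor.

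Ncf1, on chromosome 5, encodes p47phox, the organizer whose phosphorylation starts assembly of the enzyme. Its counts were low, from 30 to 112 reads in control and 165 to 402 in MCD libraries. On the CPM scale the control libraries ran from 2.18 through a median of 3.18 to 6.27, and the MCD libraries from 6.56 through 12.4 to 17.2. The diets came within 1.05-fold of touching, between MCD replicate 7 and control replicate 3. Ncf1 rose 3.45-fold (95% confidence interval 2.67 to 4.45; log2 1.79, SE 0.18; edgeR, adjusted p = 3.40e-09). In GENCODE M21, 408 bases of Ncf1 exon (11.1%) are shared with Gtf2ird2 on the opposite strand. That gene averaged 33.8 reads in control and 34.2 in MCD libraries. The sources used here do not say whether reads were counted by strand.

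Ncf4 encodes p40phox, which binds a phosphoinositide of the phagosome membrane, and lies on chromosome 15. It had the fewest reads of the members in control livers, 17 to 77 per library, against 215 to 479 in MCD livers. Control libraries held 1.002, 2.40 and 4.54 CPM (lowest, median, highest), and MCD libraries 10.4, 11.6 and 17.4 CPM. Every MCD library was at least 2.28 times the highest control. The increase was 5.04-fold (95% confidence interval 3.81 to 6.67; log2 2.33, SE 0.20; edgeR, adjusted p = 1.68e-10). Ncf4 ranked 480 by log2 fold change, second among the members to Cyba.

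Rac2, the GTPase of blood-derived cells, also lies on chromosome 15. Control libraries held 4.36, 10.4 and 18.8 CPM (lowest, median, highest) and MCD libraries 24.2, 30.8 and 40.3 CPM. Control replicate 12 gave the highest Rac2 and Ncf4 of its diet and the lowest Cybb. Rac2 rose 2.68-fold (95% confidence interval 2.10 to 3.44; log2 1.42, SE 0.17; edgeR, adjusted p = 8.91e-08). None of these 5 increases lost its call when any single library was left out, that of control replicate 12 included.

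Nox4, on chromosome 7, showed another pattern. Control libraries held 5.10, 18.3 and 57.4 CPM (lowest, median, highest), and MCD libraries 12.4, 20.8 and 29.0 CPM. The MCD libraries all lay inside the range of the controls. Mean Nox4 RNA was 25.2 ± 20.1 CPM in control and 20.5 ± 5.42 CPM in MCD livers (SD, n = 12 per diet). A log2 fold change of -0.30 (SE 0.35) did not pass the test (95% confidence interval -1.02 to 0.42; edgeR, adjusted p = 0.475). Its sign turned with total-count scaling (0.10), with limma-voom (0.19), with the sex-linked score described below as a covariate (0.15) and with the replicate number as a factor (0.14), so no direction is given for Nox4 over all libraries.

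The spread among livers of a diet was wider in controls for every member. The coefficient of variation of CPM was 37.5% to 47.7% in control and 15.1% to 22.5% in MCD livers for the 5 phagocyte subunits. For Nox4 it was 79.5% in control and 26.4% in MCD livers. No test of these spreads was made.

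Levels can be set against each other only per length of transcript. In CPM per kilobase of exon, Cyba had the highest level of the members in both diets, 11.3 ± 4.27 in control and 89.6 ± 19.6 in MCD livers (SD, n = 12). Next in control livers came Rac2 at 3.62 ± 1.46, Cybb at 3.26 ± 1.22 and Nox4 at 2.98 ± 2.37, which lay within each other's SD. Ncf4 at 1.19 ± 0.57 and Ncf1 at 0.94 ± 0.39 were the lowest levels and also lay within each other's SD, and the wide SD of Nox4 reached both. In MCD livers the order after Cyba was Cybb (11.7 ± 2.46), Rac2 (9.70 ± 1.47), Ncf4 (6.02 ± 1.02), Ncf1 (3.27 ± 0.73) and Nox4 (2.42 ± 0.64). Of neighbours in that order, Cybb with Rac2, and Ncf1 with Nox4, overlapped within their SDs.

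The ratio of members within a library does not depend on how libraries are scaled, and it showed that the phagocyte subunits did not rise to the same extent. The 15 pairs were compared by a two-sided permutation test with 100000 resamples on log2 ratios (prior count of 2), adjusted over the pairs, where 2e-05 is the smallest unadjusted p these resamples can give (1 of them is the mirror image of the diet split). Cyba rose relative to each of the other phagocyte subunits. Its log2 ratio to Cybb went from -0.67 ± 0.69 in control to 0.46 ± 0.23 in MCD livers (SD), a difference of 1.13 with a standard error of 0.21 (permutation test, adjusted p = 0.00015). The difference was 1.22 (SE 0.24) against Ncf1, 1.53 (SE 0.20) against Rac2 and 0.62 (SE 0.13) against Ncf4, with adjusted permutation p-values of 0.000112, 0.000112 and 0.000279. In the Cyba to Rac2 ratio all MCD libraries, at 1.44 to 1.82, lay above all controls, at -1.27 to 0.97.

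Ncf4 was second. It rose relative to Rac2 by 0.90 on the log2 scale (SE 0.16, permutation test, adjusted p = 0.000112), and the Ncf1 to Ncf4 ratio fell by 0.60 (SE 0.22, permutation test, adjusted p = 0.02). The Cybb to Ncf4 ratio fell by 0.51 (SE 0.23, permutation test, adjusted p = 0.0388). That last difference did not pass with a prior count of 5 (log2 -0.44, permutation test, adjusted p = 0.068) or when taken within replicate numbers (exact permutation test, adjusted p = 0.0848).

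Cybb, Ncf1 and Rac2 could not be ordered among themselves. The Cybb to Ncf1 ratio was 2.40 ± 0.63 in control and 2.50 ± 0.16 in MCD livers on the log2 scale, a difference of 0.09 (SE 0.19, permutation test, adjusted p = 0.624). The Cybb to Rac2 and Ncf1 to Rac2 ratios differed by 0.40 (SE 0.23) and 0.30 (SE 0.18), with adjusted permutation p-values of 0.103 and 0.116. Against Nox4, whose control libraries fell into separate ranges, the ratios of all 5 rose, by 1.35 (Rac2) to 2.88 (Cyba), with adjusted permutation p-values of 0.000112 to 0.0246. These values pool all libraries, and they are given apart with the sex-linked score.

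**Figure D2:**
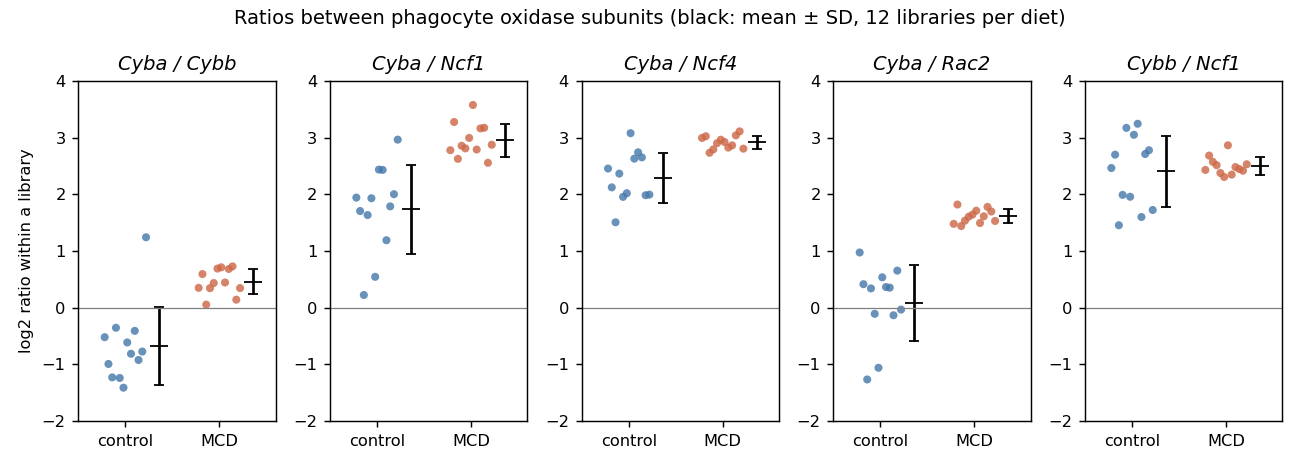
Log2 ratio of subunit pairs within a library on the vertical axis, 12 libraries per diet, mean and SD in black. The 4 ratios with Cyba over another subunit were higher in MCD livers, by 1.53 for Cyba over Rac2, while Cybb over Ncf1 had means of 2.40 and 2.50.

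Across the 12 livers of a diet, some members also varied together, and whether they did so to a different extent in the 2 diets was not tested. In all, 30 relations of log2 CPM were computed, for 15 pairs in each diet. In MCD livers Cyba and Ncf4 had a Pearson r of 0.93 (Spearman 0.91), Cyba and Rac2 0.93 (0.90), Ncf4 and Rac2 0.92 (0.92) and Cybb and Ncf1 0.90 (0.93), each with an adjusted permutation p of 0.00045 for Pearson and of at most 0.00108 for Spearman. Unadjusted permutation p-values for these 4 Pearson values were 6e-05, 2e-05, 5e-05 and 5e-05. Leaving out the 2 libraries whose level of the first gene lay farthest from its median, r was 0.75, 0.84, 0.82 and 0.89, and the adjusted permutation p was 0.0637, 0.0444, 0.0552 and 0.0114. The relations of Cyba with Ncf4 and of Ncf4 with Rac2 thus no longer passed 0.05 over 10 libraries.

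Cybb with Rac2 (r 0.79), Ncf1 with Rac2 (r 0.76) and Cyba with Cybb (r 0.70) also passed 0.05 in MCD livers, with adjusted permutation p-values of 0.0142, 0.0222 and 0.0421 and Spearman values of 0.87, 0.93 and 0.69. None of these passed without the 2 farthest libraries (r 0.75, 0.65 and 0.55). In control livers Cyba with Ncf4 (r 0.78, Spearman 0.82) was the pair that passed by Pearson's r (adjusted permutation p = 0.0222), and it did not pass without the 2 farthest libraries (r 0.70, adjusted permutation p = 0.111). By Spearman's value alone, Cyba with Ncf1 (0.84) and Ncf1 with Ncf4 (0.79) passed in MCD livers and Ncf4 with Rac2 (0.67) in control livers, with adjusted permutation p-values of 0.00476, 0.0115 and 0.0499, and their Pearson r values of 0.60, 0.55 and 0.67 did not (adjusted permutation p = 0.108, 0.163 and 0.0563). No relation over the 12 control livers is read for Nox4, because its values there fell into separate ranges. In MCD livers its r with the other members ran from -0.07 to 0.19 and none passed.

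The genes whose levels followed each member most closely were found among 10112 genes with a mean of at least 5 CPM, by the lower of the Pearson r values over the 12 control and over the 12 MCD libraries. For Cyba these were Tyrobp (0.94), an adaptor of myeloid receptors, Lgals3 (0.90), the lectin galectin-3, and Arhgdib (0.89), a blood-cell inhibitor of small GTPases. For Cybb they were Ms4a6d (0.85), Itgb2 (0.83), the shared beta chain of the leukocyte integrins, and Nckap1l (0.83), a blood-cell regulator of actin. For Ncf1 they were Abcc1 (0.83), an export pump, Hip1 (0.80) and Myo7a (0.79). For Ncf4 they were Cd68 (0.90), a macrophage lysosomal protein, Ckb (0.88), brain-type creatine kinase, and Mfge8 (0.88), a bridge for uptake of dying cells. For Rac2 they were Rasa4 (0.93), Csf1r (0.88), the macrophage growth factor receptor, and Hk3 (0.88), a hexokinase. The Nox4 neighbours were others, Ttc39c (0.90), Trip4 (0.90) and Slco1a1 (0.90), a hepatocyte uptake transporter. For Nox4 the lower value was in each case that over the MCD livers, and the r over the control livers spans the separate ranges of Nox4 there. The r over the MCD livers also spans both sides of the sex-linked score described below. Nox4 medians in MCD livers were 24.3 CPM below 0 and 15.4 CPM above 0. At the lower and upper score quartile, log2 diet differences were -0.62 and -0.04 (Ttc39c), -0.62 and -0.12 (Trip4), and -2.68 and -0.13 (Slco1a1). The part of the score in these r values was not tested. Genes of a library share its depth and scaling, and the r values are descriptions with no test.

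Nox4 levels were arranged by the sex-linked expression of the libraries. A score was taken as log2 CPM of Xist, the X-inactivation transcript, minus the mean log2 CPM of the Y-linked genes Uty, Kdm5d, Eif2s3y and Ddx3y. The score served as a numeric term, and no library was given a sex. In the 6 control libraries with a score below 0, Nox4 was 26.5, 43.4 and 57.4 CPM (lowest, median, highest). In the 6 control libraries with a score above 0, it was 5.10, 7.58 and 10.1 CPM, with no overlap. In MCD livers the 6 libraries below 0 held 18.3, 24.3 and 29.0 CPM and the 6 above 0 held 12.4, 15.4 and 24.9 CPM, which overlapped.

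The effect of diet on Nox4 changed with the score. The interaction of diet and score, an analysis added after the data were seen, was 0.10 log2 units per unit of score (SE 0.01, edgeR, adjusted p = 0.000171), ranking 3 of 14109 genes by p. At an FDR of 0.01, 0.418% of genes tested had such an interaction. At the lower quartile of the score (-6.93) Nox4 was lower in MCD than in control livers, with a log2 difference of -0.76 (SE 0.17, edgeR, adjusted p = 0.000439). At the upper quartile (11.1) it was higher in MCD livers, with a log2 difference of 1.05 (SE 0.17, edgeR, adjusted p = 1.39e-05). With the score as a covariate alone, Nox4 changed by -0.09 log2 units per unit of score (SE 0.01, edgeR, adjusted p = 3.14e-05). The ratios of the other members to Nox4 are given on either side of a score of 0 as values with no test, split after the data were seen. In the 6 control and 6 MCD libraries with a score below 0, they were higher in MCD livers by 2.68 (Rac2, SE 0.48) to 3.97 (Cyba, SE 0.45) on the log2 scale. In those with a score above 0 the differences were 0.02 for Rac2 (SE 0.33), 0.25 for Ncf1 (SE 0.37), 0.36 for Cybb (SE 0.21), 1.101 for Ncf4 (SE 0.31) and 1.78 for Cyba (SE 0.29).

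**Figure D3:**
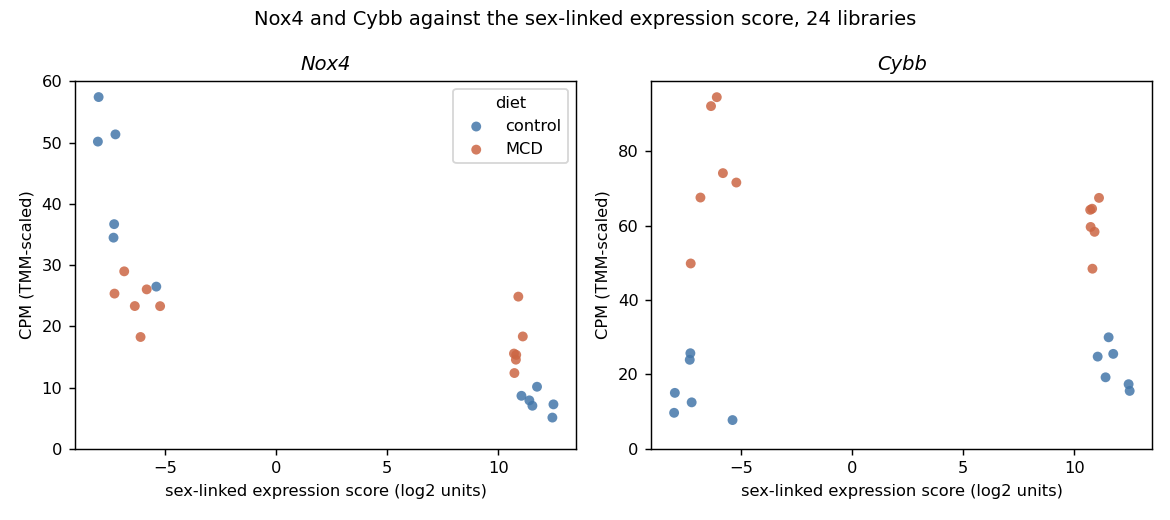
CPM of Nox4 (left) and Cybb (right) against the sex-linked expression score in log2 units, 24 libraries coloured by diet. Control Nox4 values of 26.5 to 57.4 CPM lie at scores below 0 and values of 5.10 to 10.1 CPM at scores above 0, while Cybb is higher in MCD livers on either side.

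The 5 phagocyte subunits were higher in MCD livers at the lower and at the upper quartile of the score. Log2 differences were 3.15 and 2.81 for Cyba, 2.23 and 1.49 for Cybb, 2.30 and 1.37 for Ncf1, 2.52 and 2.16 for Ncf4, and 1.80 and 1.099 for Rac2, each passing in edgeR with an adjusted p of at most 0.000219. Their interactions with the score did not pass, with adjusted p-values in edgeR from 0.151 (Ncf1) to 0.696 (Ncf4). Unadjusted, those of Ncf1 (p = 0.00491), Cybb (p = 0.0304) and Rac2 (p = 0.0366) were under 0.05 in edgeR.

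RNA of other genes whose products build, drive or restrain the phagocyte enzyme was mostly higher as well. Of 13 such genes tested, 11 rose and none fell, with a median log2 fold change of 1.27 against -0.10 for all genes tested. Hvcn1, the proton channel that balances the charge moved by the oxidase, rose furthest of the list, by 3.08 on the log2 scale (SE 0.19), from 3.04 ± 1.14 to 25.9 ± 8.21 CPM (SD, n = 12). Cybc1, a chaperone needed for NOX2 maturation, rose by 0.70 (SE 0.08), and Nrros, known to limit NOX2 by promoting its degradation, rose by 1.504 (SE 0.10).

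RNA of the kinases that phosphorylate p47phox or supply phosphoinositides also rose. Log2 fold changes were 1.80 for Prkcb, 1.23 for Prkcd, 1.20 for Pik3cd and 1.42 for Pik3cg. Exchange factors for Rac rose by 1.27 (Vav1), 1.78 (Dock2) and 0.57 (Prex1), and Arhgdib, which holds Rac GTPases in the cytosol, by 1.65. The Prex1 difference was 0.92 at the lower and 0.32 at the upper quartile of the sex-linked score, where it did not pass (edgeR, adjusted p = 0.0217), nor did it pass with a log2 limit of 1. Rac1, the broadly expressed relative of Rac2, was 149.3 ± 13.1 CPM in control and 155.0 ± 8.22 CPM in MCD livers (log2 0.05, 95% confidence interval -0.06 to 0.17). Rap1a was 49.6 ± 7.20 and 48.4 ± 2.90 CPM (log2 -0.04, 95% confidence interval -0.18 to 0.11), with a sign that turned under several scalings. Neither of these passed the test.

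**Figure D4:**
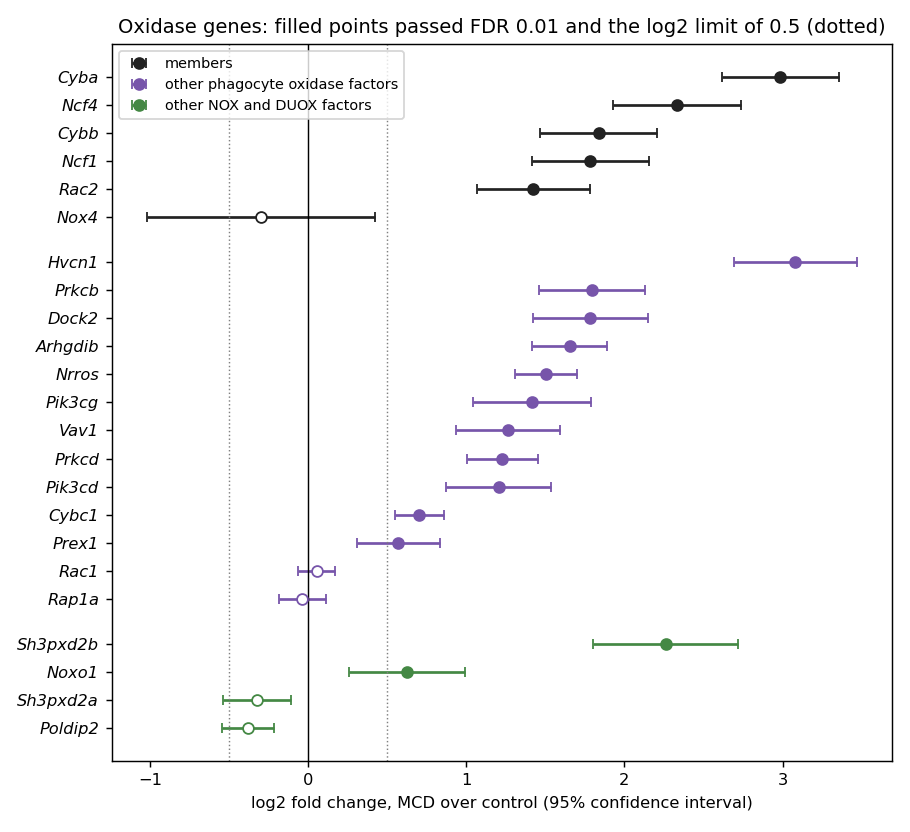
Log2 fold change, MCD over control, with 95% confidence intervals for the members, other factors of the phagocyte oxidase and other NOX or DUOX factors tested, 12 libraries per diet. Filled points passed the test: 5 of the 6 members, 11 of 13 phagocyte factors and 2 of 4 others, with Hvcn1 (3.08) and Cyba (2.98) farthest to the right.

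Of the other NOX and DUOX enzymes and their organizers, 4 of 11 genes were expressed enough to test. Nox1, Nox3, Duox1, Duox2, Duoxa1, Duoxa2 and Noxa1 had at most 8 reads in any control library and at most 21 in any MCD library. Sh3pxd2b (Tks4), an organizer used with NOX enzymes at podosomes, rose by 2.26 (SE 0.22) and Noxo1 by 0.63 (SE 0.18) on the log2 scale. Noxo1 did not pass at the lower or upper quartile of the sex-linked score (log2 0.61 and 0.65, edgeR, adjusted p = 0.0523 and 0.0382) or with a log2 limit of 1. Sh3pxd2a (Tks5) and Poldip2, a regulator of NOX4, had log2 fold changes of -0.32 and -0.38 and did not pass the fold limit. With total-count scaling the sign for Sh3pxd2a turned (0.04) and Poldip2 was at -6.01e-05.

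RNA of receptors and adaptors that trigger the oxidase was mostly higher, with 12 of 14 genes higher, 1 lower (Fpr1) and a median log2 fold change of 1.93. Itgam, which pairs with Itgb2 as the complement receptor Mac-1, rose by 3.33 (SE 0.24) and Itgb2 by 2.87 (SE 0.20). Fpr1, named after its values were seen, lost its call under most other settings and in 18 of the 24 fits that left out a library. Of 7 transcription factors known to act on oxidase genes 2 rose, Spi1 (PU.1) and Irf8, and 1 fell, Cebpe, with a median of 0.19. Of all genes tested 19.2% were higher and 19.1% lower. Cebpe was not kept with limma-voom, total-count or upper-quartile scaling, a log2 limit of 1 or the replicate number as a factor. Spi1 went from 13.6 ± 4.57 to 46.6 ± 9.35 CPM, a log2 fold change of 1.78 (SE 0.16). Rela, a subunit of NF-kappaB, was 78.1 ± 20.4 and 79.1 ± 6.07 CPM (log2 0.02, SE 0.10) and did not pass, with a sign that turned when some single libraries were left out. Irf8 and Cebpe are also named after their values were seen.

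Of 8 enzymes that remove superoxide and peroxide none was called higher and 2 were lower, Cat and Sod1 (1 without control replicate 12), beside 19.2% and 19.1% of all genes tested, with a median log2 fold change of 0.11. Catalase (Cat) fell from 1956 ± 420.4 to 901.5 ± 128.2 CPM, by 1.12 on the log2 scale (SE 0.11). Gpx1 was 1787 ± 595.7 and 2207 ± 112.4 CPM, a log2 fold change of 0.30 (SE 0.13) that did not pass. Sod2 (log2 -0.46, edgeR, adjusted p = 9.77e-07) missed the call by the fold limit alone. Sod3 went the other way (log2 0.38, edgeR, adjusted p = 0.0117) and did not pass. Sod2 and Sod3 are named after their values were seen. With total-count scaling, which moves the median of all genes by 0.37, 4 of these 8 genes were higher and 1 was lower.

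Marker genes of the cells that use the phagocyte oxidase moved with the diets as well, and their part in the members' increase was not tested. Of 6 general macrophage markers 5 rose, with a median of 1.03, and their summed level was 180 to 401 CPM in control and 1071 to 2425 CPM in MCD livers. Most of that sum in MCD livers was Lyz2 (lysozyme M), which went from 83.4 ± 31.9 to 1142 ± 331.7 CPM, a log2 fold change of 3.78 (SE 0.20). All 8 markers of monocytes and monocyte-derived macrophages rose, with a median of 3.004 and summed levels of 46.9 to 210 CPM in control and 1094 to 2161 CPM in MCD livers. Among them Gpnmb (log2 6.89, SE 0.70) and Spp1 (log2 3.34, SE 0.25) stand by the naming rule, and bile duct cells also express Spp1. Gpnmb had 0 to 426 reads per control library. Its log2 fold change was 4.63 with DESeq2, 8.45 with limma-voom and 8.10 with the replicate number as a factor. With at least 10 counts in every sample, where Gpnmb was not tested, 3 monocyte markers were higher.

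Markers of resident Kupffer cells went the other way, with 5 of 6 lower and a median of -1.16, and summed levels of 149 to 445 CPM in control and 81.3 to 297 CPM in MCD livers. Cd163 fell by 6.14 on the log2 scale (SE 0.38), with 0 to 24 reads per MCD library, and Clec4f by 1.11 (SE 0.27). Clec4f did not pass with total-count scaling (log2 -0.77, edgeR, adjusted p = 0.0108) or at the lower quartile of the sex-linked score (log2 -0.55, edgeR, adjusted p = 0.193), against -1.66 at the upper quartile. The number of Kupffer cell markers lower was 2 with total-count scaling or a minimum of 10 counts in every sample and 3 with the replicate number as a factor. Cd5l, of the same list and named after its values were seen, was 90.5 ± 28.6 and 91.1 ± 28.6 CPM. Of 10 neutrophil markers 3 could be tested and all 3 rose (S100a8 by 2.80 and Csf3r by 1.44), with summed levels of 2.24 to 6.96 CPM in control and 12.1 to 31.6 CPM in MCD livers. S100a8 had 1 to 15 reads per control and 32 to 198 per MCD library. Counts this low in controls can pass the filter through the MCD libraries alone. With at least 10 counts in every sample, where S100a8 and S100a9 were not tested, 1 neutrophil marker was higher. The defining neutrophil gene Ly6g had no read in any control library and at most 3 in any MCD library.

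**Figure D5:**
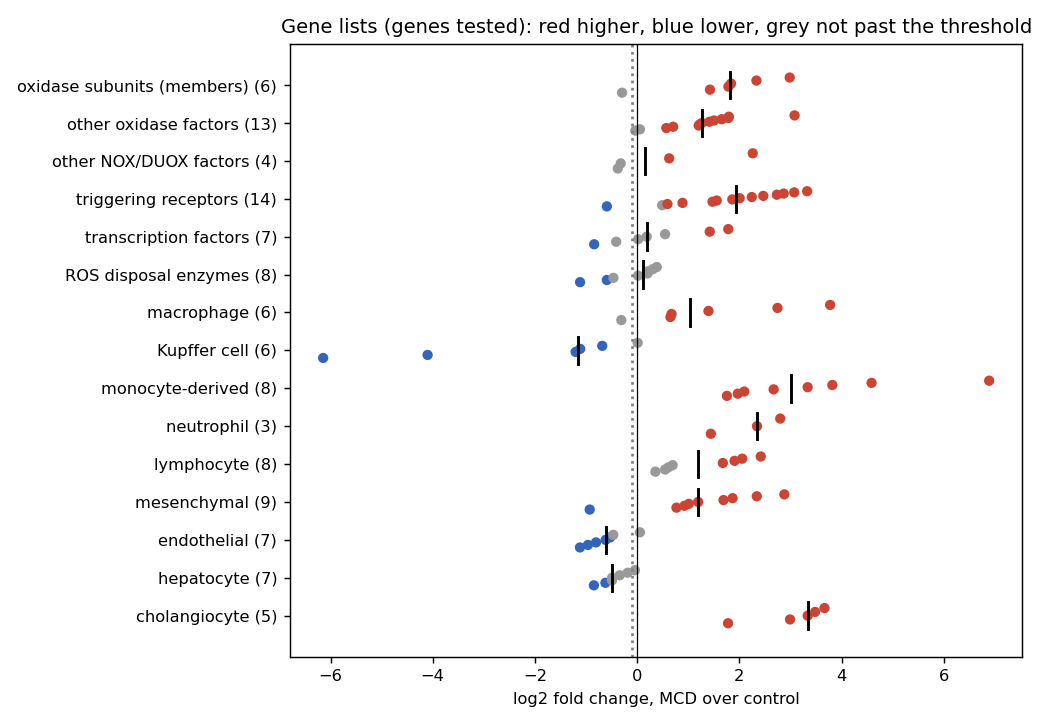
Log2 fold change, MCD over control, of every tested gene in each list, with the list median as a black bar and the median of all genes (-0.10) dotted. Monocyte-derived markers (median 3.004) and the subunits (1.81) lie to the right and Kupffer cell markers (-1.16) to the left.

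Whether a member rose as far as macrophage markers depended on 1 marker. Against the sum of the 6 macrophage markers, Cyba rose by 0.73 on the log2 scale (SE 0.14), while Cybb fell by 0.40 (SE 0.16), Ncf1 by 0.50 (SE 0.16) and Rac2 by 0.80 (SE 0.13), with adjusted permutation p-values of 0.000105, 0.0209, 0.00832 and 0.000105. Taken within replicate numbers, the Cybb difference did not pass (exact permutation test, adjusted p = 0.053). Ncf4 differed by 0.10 (SE 0.17, permutation test, adjusted p = 0.545). With Lyz2 left out of the sum, an alternative added after the data were seen, all 5 rose relative to the markers, Cyba by 2.38, Ncf4 by 1.76, Cybb by 1.25, Ncf1 by 1.16 and Rac2 by 0.86 (each with an adjusted permutation p of 2.8e-05). Of the 5, Cyba passed in the same direction with and without Lyz2.

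Nox4 fell relative to the macrophage sum by 2.15 on the log2 scale (SE 0.50, permutation test, adjusted p = 0.000257), but by 0.49 without Lyz2 (SE 0.49, permutation test, adjusted p = 0.326). Against the summed markers of stellate cells and myofibroblasts it fell by 1.41 (SE 0.45, permutation test, adjusted p = 0.00756). Described within the score, with no test, the difference to mesenchymal markers was -2.40 (SE 0.37) below 0 and -0.41 (SE 0.32) above 0, that to the macrophage sum -3.41 (SE 0.39) and -0.89 (SE 0.21), and that without Lyz2 -1.81 (SE 0.33) and 0.83 (SE 0.23). Of these mesenchymal markers 8 of 9 rose and 1 fell, with a median of 1.19 and summed levels of 152 to 428 CPM in control and 555 to 949 CPM in MCD livers. Col1a1, the main fibrillar collagen chain, rose by 2.88 (SE 0.35) and Dcn by 0.77 (SE 0.14).

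Markers of other cell types were counted too. Of 8 lymphocyte markers tested, 4 rose (Cd8a by 2.42, Nkg7 by 2.06), beside 19.2% of all genes tested. The others, Cd79a among them (log2 0.55), did not pass. Cd8a and Nkg7 had 2 to 20 and 2 to 30 reads per control library. Counts this low in controls can pass the filter through the MCD libraries alone. With at least 10 counts in every sample none of the 4 was tested and 0 lymphocyte markers were higher. All 5 bile duct cell markers rose, with a median of 3.34, which is the value of Spp1, a gene also on the monocyte list, and Epcam by 3.67 (SE 0.22). Endothelial markers were lower in 5 of 7 (Kdr by -1.12, Stab2 by -0.81), and hepatocyte markers in 2 of 7 (Ttr by -0.85, Alb by -0.62), beside 19.1% of all genes tested. Without control replicate 8 or 11, or MCD replicate 1 or 9, 4 of the 7 hepatocyte markers were lower. With total counts 2 endothelial and 0 hepatocyte markers were lower, and with upper-quartile factors 3 and 1. With a log2 limit of 1 they numbered 1 and 0. Whether these shifts bear on the members was not tested.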

How the data were processed

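The authors deposited whole-number counts of reads per Ensembl gene for 24 mouse liver libraries; per the labels, reads were aligned to mm10 with STAR 2.7.3a after bcl2fastq, and the counting program and its use of strand for these mouse reads are not given in the sources used here. The study's methods name the exon quantification pipeline and PISCES for human reads, and a stranded mRNA kit. Groups came from the diet labels. Of 56205 rows, 51745 were named from GENCODE M21, which was also the source of exon lengths and overlaps. Genes kept by filterByExpr (14109) were TMM-scaled and tested in edgeR 4.0.16 (R 4.3.3) by the quasi-likelihood test without covariates. SE is the absolute log2 fold change over the square root of F. CPM in the text is TMM-scaled, and log2 CPM used a prior count of 2. Intervals are 95% confidence intervals, and p-values measure the spread between libraries, which the design text ties to separate animals. Ratios and relations used permutation tests (SciPy 1.17.1). DESeq2 1.42.0 and limma 3.58.1 were alternatives. The fit was tested on simulated data.

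The members and gene lists were chosen with earlier results of these data known. Every gene of the lists of oxidase factors was named. From each other list the rule named the called gene with the largest change, the called gene with the most CPM, and the gene with the most CPM if it was not called. Each member's 3 closest genes were named too. For the oxidase factors and for the transcription factors, 1 listed gene each is not reported here and was left out of the counts. Sequences were copied from RefSeq tables (GRCm38.p6).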

Additional observations from a re-analysis of the deposited data

Results flagged for a closer look

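Nox4 was marked because its response to diet differed across libraries of different sex-linked expression. Its log2 fold change between the diets changed by 0.101 per unit of the score (SE 0.0131, edgeR, adjusted p = 0.000171). In control livers the 6 libraries with a score above 0 held 5.10 to 10.1 CPM and the 6 below 0 held 26.5 to 57.4 CPM, and in MCD livers these ranges were 12.4 to 24.9 and 18.3 to 29.0 CPM. Over 8 other settings the interaction ran from 0.0953 to 0.105, with adjusted p-values from 2.46e-10 (DESeq2) to 0.00349 (replicate number as a factor). When each of the 24 libraries was left out in turn it ran from 0.0903 to 0.106 and passed each time. The score was computed from the libraries, and the labels give no sex by which it could be checked.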

How the results depend on the processing

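The 5 increases of Cyba, Cybb, Ncf1, Ncf4 and Rac2 passed under every alternative tried and with any library left out. Counts limit Ncf1 and Ncf4 most, with as few as 30 and 17 reads in a control library. Scaling moved the whole comparison: total counts alone shifted the median log2 fold change of all genes by 0.37 and upper-quartile factors by 0.15, and the share of calls that were higher in MCD went to 84.3% and 65.6%. Except where stated, the cause of a change was not tested.

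Nox4, not called, had a log2 fold change of 0.104 with total counts, 0.190 with limma-voom, 0.142 with the replicate block and 0.151 with the score as covariate, and of -0.758 and 1.05 at the lower and upper score quartiles. Genes higher in MCD numbered 4540 with total counts and 1801 with at least 10 counts in every sample, where fewer genes were tested. Genes lower numbered 848 with total counts, 1710 with upper-quartile factors, 5221 with an FDR of 0.05 and no fold limit and 686 with a log2 limit of 1. Genes with every MCD library above every control numbered 2474 with total counts, and genes with every one below numbered 97 with total counts and 334 with upper-quartile factors.

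Replicate numbers were not taken to pair the libraries in the main fit. Of 12 pairs of the same number 8 correlated above 0.1 (range -0.28 to 0.35). The median was 0.23 for the same number and -0.06 for other numbers, which does not settle whether the numbers pair animals. The sex-linked score was above 0 in control replicates 2 to 7 and MCD replicates 3 to 8. Most numbers thus had both libraries on the same side of 0, so the replicate block partly stands for the score. Of the 12 control libraries 2 correlated best with their own number. With the replicate block 3 Kupffer cell markers, no receptor and no regulator were lower, and the Cybb to Ncf4 difference (-0.507, adjusted p = 0.0848) and the difference of Cybb to macrophage markers (-0.403, adjusted p = 0.053), both from an exact permutation test, did not pass. With a prior count of 5 Cybb to Ncf4 was -0.436 and did not pass. Without Lyz2 the differences to macrophage markers were 1.25 for Cybb, 1.16 for Ncf1, 0.856 for Rac2, 1.76 for Ncf4 and -0.495 for Nox4.

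List counts moved as follows. With total counts 4 disposal enzymes were higher and 1 lower, 4 regulators were higher and 0 lower, and 2 endothelial, 0 hepatocyte, 2 Kupffer cell, 0 mesenchymal and 0 receptor genes were lower. With upper-quartile factors 1 disposal enzyme was higher and 1 lower, and 3 endothelial, 1 hepatocyte, 0 receptor and 0 regulator genes were lower. With at least 10 counts in every sample 3 monocyte, 1 neutrophil and 0 lymphocyte markers were higher and 2 Kupffer cell and 0 receptor genes lower. Without a filter 8 neutrophil and 4 NOX or DUOX genes were higher and 0 receptors lower. With an FDR of 0.05 and no fold limit 2 disposal enzymes were higher, and 4 hepatocyte, 2 NOX or DUOX and 2 regulator genes were lower. With a log2 limit of 1, 3 macrophage and 1 NOX or DUOX gene were higher, and 1 disposal, 1 endothelial, 0 hepatocyte, 0 mesenchymal, 0 receptor and 0 regulator genes were lower. With DESeq2, relative log expression factors and the score as covariate 0 receptors were lower, and with limma-voom 0 receptors and 0 regulators. With single libraries left out, receptors lower numbered 0 to 1 (Fpr1 was lost in 18 of 24), hepatocyte markers lower 2 to 4 (4 without control replicate 8 or 11 or MCD replicate 1 or 9) and disposal enzymes lower 1 to 2 (1 without control replicate 12).

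Rap1a, not called, was at 0.0276 with DESeq2, 0.0275 with relative log expression factors, 0.0486 with the count minimum, 0.0076 without a filter, 0.12 with upper-quartile factors, 0.33 with total counts and 0.12 at the upper score quartile, where Myo7a was -0.15 and Rela -0.0103. With each library left out in turn Rap1a ran from -0.0699 to 0.0211 and Rela from -0.0123 to 0.143. Sh3pxd2a was 0.0372 with total counts. In relations with total counts, Cyba with Ncf1 in control was 0.180, Rac2 with Nox4 in MCD was -0.0482, and Cybb with Ncf4 in MCD (0.721) and Ncf4 with Rac2 in control (0.694) passed 0.05. The value for Rac2 with Nox4 in control, -0.686, spans the separate ranges of Nox4 there and is not read as a relation.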
